A study of Mus musculus with 8 samples.

Results

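The heat shock chaperones of the cytosol and the mitochondrion were followed in mouse cerebral cortex through 45 genes. The genes were chosen with earlier results of these data known. Every probe set that carried 1 of their symbols was then taken, whatever its values. All 45 genes were on the array, with 116 of the 45037 probe sets tested, and 14 of them had a single probe set. A further probe set, shared by *Fkbp4* and a second gene, was not counted. The RNA was from the cortex of males of 2 strains, SAMR1, which resists senescence and is the control, and SAMP8, in which senescence is accelerated, taken at an age of 16 weeks or 1 year. Each of the 4 groups had 2 arrays and, by the study's methods, 2 mice. Which mouse each array measured is not stated, so the p-values measure the spread between arrays. For the SAMP8 group the genotype field says SAMR8, and the titles decided the grouping. Physiological aging is the difference of 1 year from 16 weeks in SAMR1, and accelerated aging is that difference in SAMP8. Early events are the difference of SAMP8 from SAMR1 at 16 weeks, and late events the one at 1 year. Values are log2 signals after RMA, the summary step that gives 1 value per probe set and array. A probe set was called at an adjusted p under 0.05 from limma (Benjamini-Hochberg over all probe sets tested).

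Chaperones bind unfolded proteins and help them fold. HSP70 proteins bind and release a client with ATP, J-domain proteins (DNAJ) bring the client and start ATP hydrolysis, and HSP110 and BAG proteins exchange the nucleotide. HSP90 with its co-chaperones acts later on clients such as kinases and steroid receptors, small heat shock proteins hold aggregating proteins without ATP, and the chaperonins (HSP60 with HSP10 in mitochondria, TRiC/CCT in the cytosol) fold proteins inside a closed chamber. When unfolded proteins accumulate, heat shock factor 1 (HSF1) binds heat shock elements, inverted repeats of the bases GAA, and raises transcription of the inducible members. Neurons are known for a high level of the constitutive members and a weak induction of HSP70.

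The bases before the gene starts are shown for 4 genes that were called higher in SAMP8 at 16 weeks or are the copy of one that was. *Hspa1b* and *Hspa1a* encode the inducible HSP70, *Hsph1* encodes HSP105 and *Hspb1* encodes HSP25. The windows are those of RefSeq on build GRCm38.p6, each 250 bases long, 5′ to 3′ on the strand of the gene, and capitals mark the motif GAANNTTC or TTCNNGAA, each of which reads the same on both strands. *Hspa1b* lies at chr17:34959239-34959488 and *Hspa1a* at chr17:34972157-34972406, both on the minus strand. *Hsph1* lies at chr5:149636337-149636586 on the minus strand (the more upstream of its 2 windows), and *Hspb1* at chr5:135887669-135887918 on the plus strand.
Hspa1b: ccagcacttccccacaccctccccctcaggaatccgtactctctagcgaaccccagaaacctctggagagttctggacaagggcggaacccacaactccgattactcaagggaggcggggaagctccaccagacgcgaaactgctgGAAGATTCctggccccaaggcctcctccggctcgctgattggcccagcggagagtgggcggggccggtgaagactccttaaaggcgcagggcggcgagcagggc
Hspa1a: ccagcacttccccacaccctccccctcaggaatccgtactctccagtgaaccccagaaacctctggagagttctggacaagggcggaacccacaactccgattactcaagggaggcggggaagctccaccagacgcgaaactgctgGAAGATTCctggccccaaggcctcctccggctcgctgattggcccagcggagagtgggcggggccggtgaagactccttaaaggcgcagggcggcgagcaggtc
Hsph1: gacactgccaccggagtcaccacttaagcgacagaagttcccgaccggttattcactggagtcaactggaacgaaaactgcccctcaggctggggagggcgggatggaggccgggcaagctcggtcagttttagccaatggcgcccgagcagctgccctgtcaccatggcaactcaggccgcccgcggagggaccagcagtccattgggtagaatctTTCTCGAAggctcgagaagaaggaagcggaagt
Hspb1: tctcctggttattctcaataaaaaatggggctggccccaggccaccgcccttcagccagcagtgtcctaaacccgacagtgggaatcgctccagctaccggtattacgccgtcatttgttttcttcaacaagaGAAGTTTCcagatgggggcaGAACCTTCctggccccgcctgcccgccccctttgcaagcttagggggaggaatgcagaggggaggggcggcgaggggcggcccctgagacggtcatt
The stretches of *Hspa1b* and *Hspa1a* were equal at 247 of 250 bases, and each held the motif once, starting 104 bases before the gene start. *Hspb1* held it at 117 and 97 bases before the start. *Hsph1* held it 33 bases before the start and at 2 more places after it. Over windows that also take in 50 bases after the start, 36 of the 45 genes were found, and 16 of these (44.4%) held the motif, against 17.0% of the 27025 genes with a window. Of the genes called higher in SAMP8 at 16 weeks, 6 of the 8 with a window held it (*Hspa1b*, *Hsph1*, *Dnaja1*, *Dnaja4*, *Dnajb4* and *Hspb1*), and of the other members 10 of 28. The windows of *Dnajb1* and *Dnajb5*, also called, held no match. The longer motif GAANNTTCNNGAA or TTCNNGAANNTTC was in 5 of the 36 genes (*Hsph1*, *Dnajb6*, *Chordc1*, *Hspd1* and *Hspe1*), against 0.662% of genes. By the same split it was in 1 of the 8 called genes (12.5%) and in 4 of the 28 others (14.3%). Every long match contains the short one, and a gene with several windows had more chances of a match. The windows of *Hspd1* and *Hspe1*, which start in opposite directions, share 285 bases. A match is a description of letters, and binding of HSF1 was not measured.

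The 2 arrays of a group correlated at 0.995 to 0.9981, and array medians lay between 4.32 and 4.36. Over the member probe sets the SD within a group had a median of 0.06. Markers of cortical pyramidal neurons lay at a mean log2 signal of 7.06 to 7.40 over 8 genes on every array. Markers of neighboring regions differed between arrays. Those of the striatum were at 7.03 on SAMR1 16 weeks replicate 1 and at 7.97 to 8.31 on the others. The hypothalamus list was at 4.61 and 4.58 in SAMR1 at 16 weeks and at 3.91 to 3.97 elsewhere. Most of this came from *Pmch*, at 7.21 and 4.93 there, and *Avp*, at 4.96 and 6.53, each high on a different array. The other genes of that list had log2 differences of −0.46 to 0.05 in early events and no call. Since the samples were bulk tissue, fewer cells of a type and less RNA per cell cannot be told apart.

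At 16 weeks 9 of the 45 chaperone genes were called higher in SAMP8 than in SAMR1 on at least 1 probe set, and none was called lower. Early events called 13 member probe sets of 9 genes, all of them higher in SAMP8, which was 11.2% of the 116 probe sets where 1.23% of all probe sets were called. For the higher direction alone the background was 0.708%, and for the lower, with no member called, 0.522%. A mean log2 signal of at least 5 was reached by 89 of the 116 member probe sets and by 17854 of all 45037. In a fit of those 17854 alone, 2.39% were called, and all 13 member calls held. The genes were *Hspa1b*, *Hsph1*, *Dnaja1*, *Dnaja4*, *Dnajb1*, *Dnajb4*, *Dnajb5*, *Hsp90ab1* and *Hspb1*, and the log2 differences ranged from 0.33 to 1.29. Both SAMP8 arrays lay above both SAMR1 arrays in 60 of the 116 probe sets (51.7%), against 18.4% of all probe sets, and below them in 11, against 19.1%. All 13 calls were among the 60, so leaving out 1 array could not reverse their direction. The median log2 difference of the member probe sets was 0.08, and that of all probe sets was 0.00. The most negative was −0.51, in *Hspa12a* on probe set 1436961_PM_at, without overlap and not called (adjusted p = 0.157). At 1 year that probe set was at −0.56 (adjusted p = 0.214), and the other probe sets of the gene were at −0.15 to 0.02 at 16 weeks. The calls depended on single arrays: without SAMP8 16 weeks replicate 2 none of the 13 held, at adjusted p between 0.0515 and 0.188, although all 13 stayed higher. Without SAMP8 16 weeks replicate 1, 3 of them held (in *Hspa1b* and *Hspb1*). Without SAMR1 16 weeks replicate 1, 4 held, and leaving out SAMR1 16 weeks replicate 2 kept 8. Removal of 1 of the SAMR1 arrays of 1 year kept 4, and of 1 of the SAMP8 arrays of that age kept 5.

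The largest strain difference at 16 weeks was that of *Hspa1b*, on all 3 of its probe sets. Probe set 1427126_PM_at was at 4.54 and 4.26 in SAMR1 and 5.54 and 5.85 in SAMP8 at 16 weeks, and at 5.27 and 5.06 in SAMR1 and 4.83 and 5.16 in SAMP8 at 1 year. The SAMR1 16 weeks arrays were the lowest of the 8 and the SAMP8 16 weeks arrays the highest, with both 1 year groups between them and overlapping. The difference at 16 weeks was 1.29 on the log2 scale, a 2.45-fold difference (standard error 0.15, adjusted p = 0.00618). Probe set 1427127_PM_x_at was at 5.66 and 5.55 in SAMR1 and 6.57 and 6.83 in SAMP8 at 16 weeks, and at 6.40 and 6.48 and then 6.18 and 6.55 at 1 year. The brightest, 1452318_PM_a_at, was at 6.57 and 6.10 against 7.19 and 7.50 at 16 weeks, and at 7.36 and 7.32 against 7.00 and 7.31 at 1 year. On both of these, SAMR1 at 16 weeks again stood below every other array, by 1.09 (adjusted p = 0.00639) and 1.01 (adjusted p = 0.0295) against SAMP8. The 1 probe set of *Hspa1a*, the near-identical copy, was at 4.83 and 4.83 in SAMR1 and 4.93 and 5.21 in SAMP8 at 16 weeks, and at 4.95 and 5.13 and then 5.09 and 5.33 at 1 year. Its arrays did not overlap at 16 weeks, and the difference of 0.24 was not called (standard error 0.11, adjusted p = 0.401). How far these probe sets separate the RNAs of the 2 copies was not tested.

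*Hsph1*, the nucleotide exchange factor HSP105 of the HSP110 group, had 2 probe sets and 1 call. Probe set 1423566_PM_a_at was at 8.49 and 8.68 in SAMR1 and 9.06 and 9.06 in SAMP8 at 16 weeks, a difference of 0.47 (standard error 0.09, adjusted p = 0.0468). At 1 year it was at 8.92 and 8.96 in SAMR1 and 9.05 and 8.85 in SAMP8, so the SAMR1 16 weeks arrays were the low ones. The brightest probe set of the gene was at 9.46 and 9.50 against 9.66 and 9.81 at 16 weeks, and at 9.53, 9.58, 9.61 and 9.48 at 1 year. Its difference of 0.26 had the same direction and was not called (adjusted p = 0.184).

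J-domain proteins made up the largest share of the calls. Of their 25 probe sets, 6 in 5 genes were called higher in SAMP8 at 16 weeks, 20 had arrays that did not overlap with SAMP8 above, and 1 had them the other way. *Dnajb5*, a cytosolic partner of HSC70, was at 5.80 and 6.20 in SAMR1 and 7.10 and 6.85 in SAMP8 at 16 weeks on probe set 1421962_PM_at, and at 6.00 and 5.87 and then 6.23 and 6.29 at 1 year. The SAMP8 16 weeks arrays stood alone above the other 6, and the difference was 0.97, or 1.97-fold (standard error 0.13, adjusted p = 0.0127). Its other probe sets, at 0.33 and 0.42, were not called. *Dnajb1*, which encodes HSP40, the stress-inducible partner of HSP70, was called on both of its probe sets. The brighter was at 7.96 and 7.95 in SAMR1 and 8.42 and 8.44 in SAMP8 at 16 weeks, and at 1 year it was at 8.21 and 8.29 and then 8.11 and 8.31 (0.47 at 16 weeks, standard error 0.08, adjusted p = 0.0288). The dimmer was at 6.33 and 6.54 against 6.93 and 6.93 at 16 weeks, and at 6.58, 6.56, 6.40 and 6.54 at 1 year (0.49, standard error 0.08, adjusted p = 0.0327). On both, the SAMP8 16 weeks pair was the highest of the 4 groups.

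3 further J-domain genes were each called on 1 of 3 probe sets. *Dnaja1*, the main farnesylated partner of HSC70, was at 9.03 and 9.05 in SAMR1 and 9.43 and 9.49 in SAMP8 at 16 weeks, and at 9.04, 9.21, 9.14 and 9.16 at 1 year. Only the SAMP8 16 weeks pair stood apart, by 0.42 over SAMR1 (standard error 0.07, adjusted p = 0.0347). *Dnaja4*, of the same class, was at 6.76 and 6.88 against 7.33 and 7.25 at 16 weeks, and at 6.99 and 7.12 in SAMR1 and 7.29 and 7.19 in SAMP8 at 1 year. Here the SAMR1 16 weeks arrays were the lowest and the groups did not overlap at either age, with SAMP8 higher by 0.47 in the younger pair of groups (standard error 0.08, adjusted p = 0.0303) and by 0.19 in the older (adjusted p = 0.628). *Dnajb4* was at 5.78 and 5.74 against 6.25 and 6.08 at 16 weeks, and at 5.88, 5.92, 5.99 and 5.97 at 1 year. Its SAMP8 16 weeks arrays were again above all others (0.40, standard error 0.07, adjusted p = 0.0384).

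Of the HSP90 proteins, *Hsp90ab1*, the constitutive form, was called on both of its probe sets, and *Hsp90aa1*, the more inducible form, on none of 5. For *Hsp90ab1* probe set 1416364_PM_at was at 9.59 and 9.62 in SAMR1 and 9.98 and 9.94 in SAMP8 at 16 weeks, and at 9.50 and 9.57 and then 9.82 and 9.86 at 1 year. Probe set 1416365_PM_at was at 10.67 and 10.67 against 11.02 and 10.98, and at 10.74 and 10.83 against 11.03 and 11.01. SAMP8 was above SAMR1 at both ages without overlap. The early difference was 0.36 and 0.33 (adjusted p = 0.0352 and 0.0486), and the late difference of 0.30 and 0.23 was not called (adjusted p = 0.0961 and 0.239). The brightest probe set of *Hsp90aa1* lay between 11.50 and 11.63 on all arrays, with a difference of 0.09 at 16 weeks (standard error 0.06, adjusted p = 0.584). Among small heat shock proteins *Hspb1* was at 5.45 and 5.64 in SAMR1 and 6.02 and 6.31 in SAMP8 at 16 weeks, and at 5.78, 5.75, 5.63 and 5.69 at 1 year. The SAMP8 16 weeks pair was the highest, by 0.62 over SAMR1, or 1.54-fold (standard error 0.10, adjusted p = 0.0305). Its other probe set was at 5.05 and 5.05 against 5.27 and 5.62 and was not called (0.40). *Cryab*, the gene of αB-crystallin, which oligodendrocytes and astrocytes express, had differences of 0.01 to 0.08 on 3 probe sets and no call. On its brightest it was at 8.18 and 8.06 in SAMR1 and 8.01 and 8.31 in SAMP8 at 16 weeks and at 8.30, 8.48, 8.40 and 8.18 at 1 year, so the groups overlapped.

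**Figure D1:**
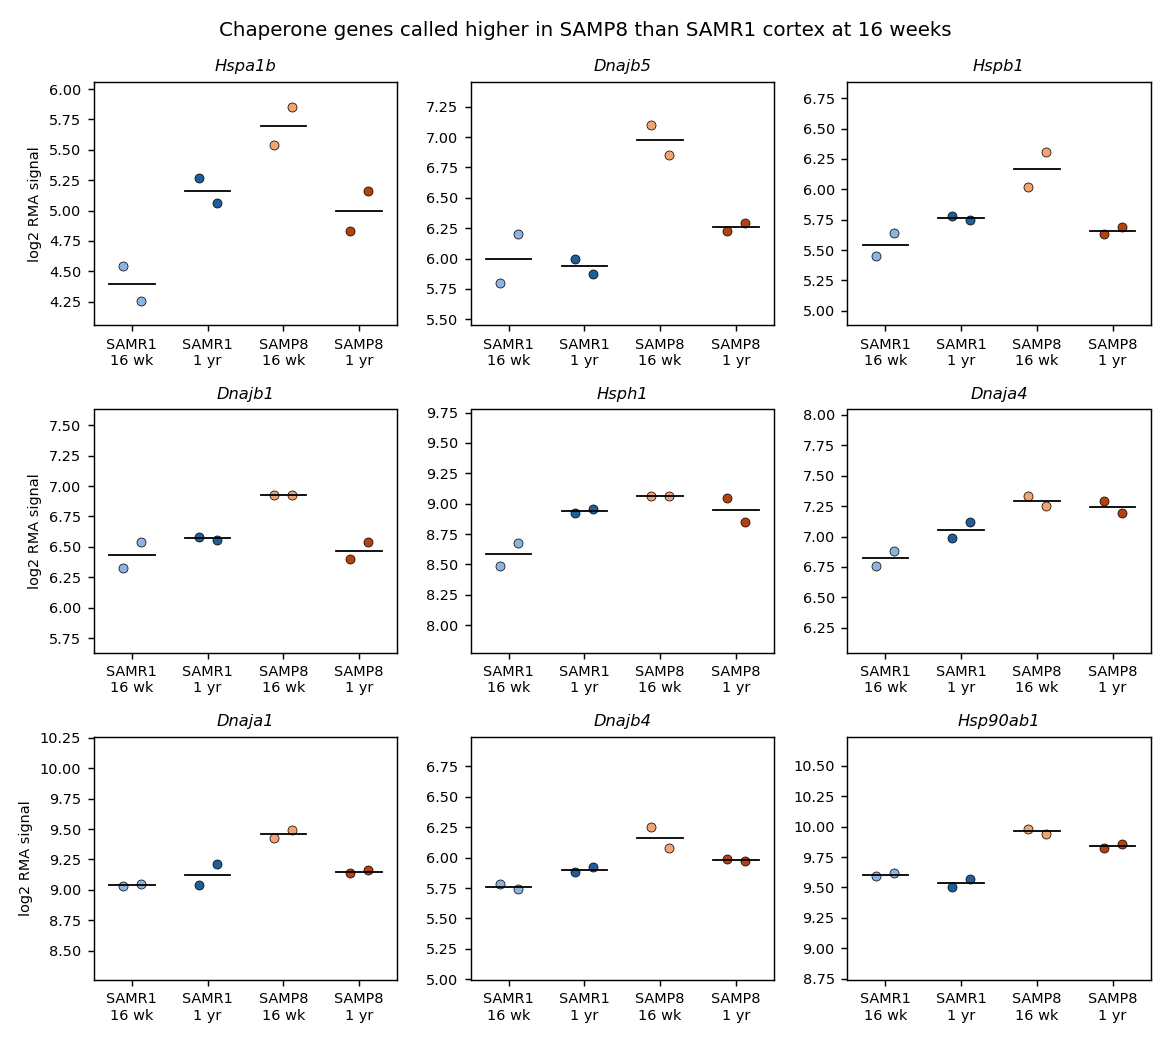
Log2 RMA signal of the 9 chaperone genes called higher in SAMP8 than in SAMR1 at 16 weeks, on the called probe set with the largest difference. Each point is 1 array, each line the mean of a group of 2, and every panel spans 2 log2 units; the SAMP8 16 weeks pair is the highest of the 4 groups except in *Dnaja4*, where it overlaps with SAMP8 at 1 year, and the SAMR1 16 weeks pair is the lowest in *Hspa1b*, *Hsph1*, *Dnaja4* and *Dnajb4*.

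The SAMP8 16 weeks group ranked above all other arrays in more chaperone probe sets than any other group did, called or not. A rank takes no account of the margin, which could be small, as in *Hsph1* on probe set 1423566_PM_at (9.06 against 9.05). In 45 of the 116 probe sets (38.8%) both of its arrays lay above all 6 others, against 7.54% of all probe sets. The other groups did so in 4 probe sets (SAMR1 at 16 weeks), 2 (SAMR1 at 1 year) and 6 (SAMP8 at 1 year), against 7.01%, 5.54% and 4.84% of all probe sets. The 45 probe sets belonged to every role, among them *Hspd1* and *Hspe1* of the mitochondrial chaperonin, *Fkbp4*, *Stip1*, *Ahsa1* and *Chordc1* of the HSP90 co-chaperones, *Bag3*, and *Hsf1*. SAMR1 at 16 weeks lay below all other arrays in 12 probe sets (10.3%), against 5.84%. Of the 13 calls of early events, 10 had SAMP8 at 16 weeks above all others and 8 had SAMR1 at 16 weeks below all others, counts that the choice of called probe sets favors.

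The arrays of SAMR1 at 16 weeks, the control of early events, also carried the region markers that set them apart. Of 10 hypothalamus probe sets 1 was called lower in SAMP8 (*Avp*), of 22 thalamus probe sets 2 (*Prkcd* and *Plekhg1*), of 20 choroid plexus, 14 striatum and 8 olfactory bulb probe sets none. The thalamus list was at 6.17 and 5.78 in SAMR1 at 16 weeks and at 5.32 to 5.67 on the other arrays, and the olfactory bulb list at 4.94 on SAMP8 16 weeks replicate 1 and 5.05 on SAMP8 1 year replicate 2, against 4.02 to 4.15. The choroid plexus list was at 5.08 and 4.35 in SAMR1 and 4.29 and 4.38 in SAMP8 at 16 weeks, and at 4.78 to 5.21 at 1 year. Of 24 oligodendrocyte probe sets 5 were called lower in SAMP8 at 16 weeks (20.8%), with the list at 9.22 and 9.23 in SAMR1 and 8.88 and 9.07 in SAMP8. Of all probe sets 0.522% were called lower and 0.708% higher in this comparison. An unadjusted p under 0.05 was reached by 17 of the 24 (70.8%), all lower, against 14.0% of all probe sets. Of 30 astrocyte probe sets 1 was called higher (*Gja1*), of 15 endothelium and pericyte probe sets 1 (*Rgs5*), and of 18 cortical neuron, 14 microglia and 5 red blood cell probe sets none. The other probe sets of *Gja1* were at −0.26 to −0.11, and over the astrocyte list 21 differences were negative and 9 positive. For *Rgs5* the brightest probe set was at 0.00 and the remaining uncalled ones at 0.72 and 0.18. The part of these markers in the chaperone differences was not tested.

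**Figure D2:**
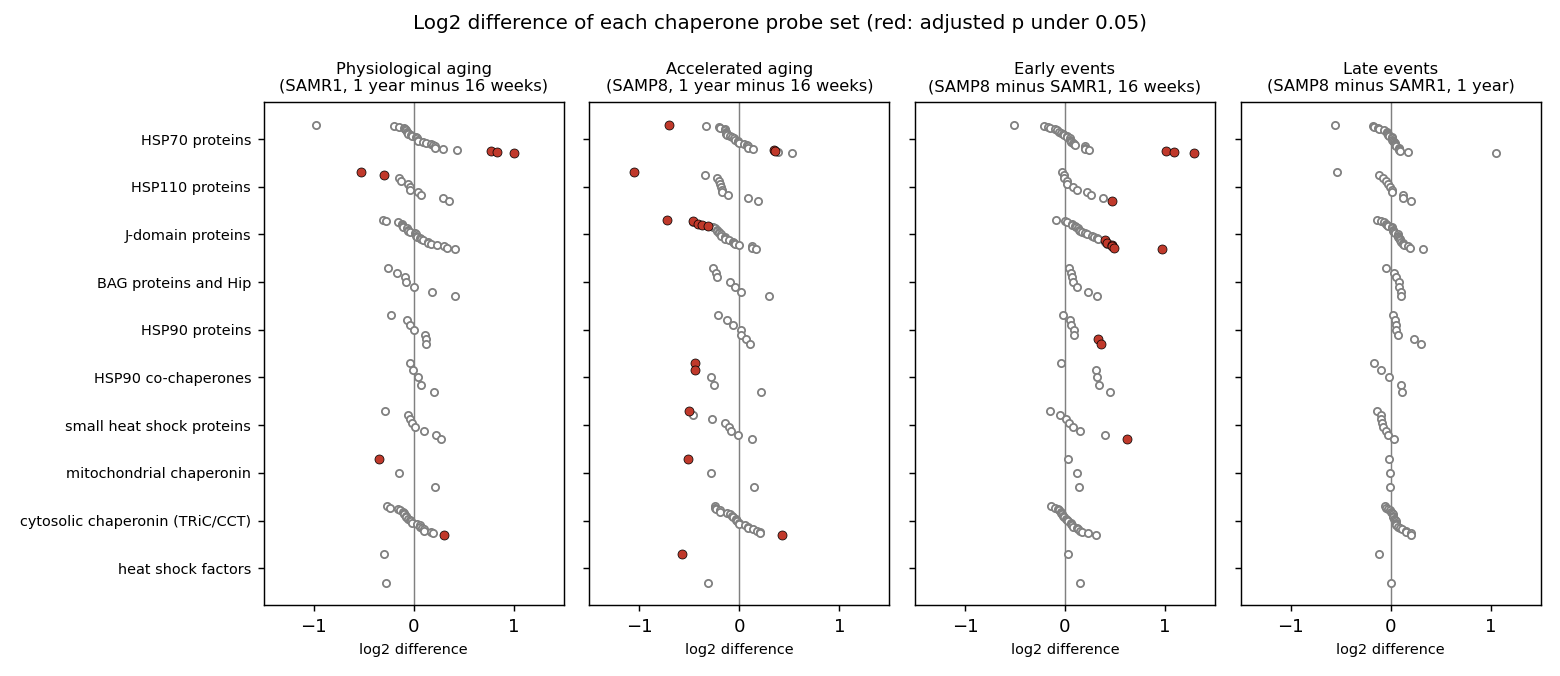
Log2 difference of each of the 116 chaperone probe sets in the 4 comparisons, in rows by role. Each point is 1 probe set, red where the adjusted p was under 0.05; red points lie only right of 0 in early events, mostly left of 0 in accelerated aging, and there is none in late events.

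With physiological aging, from 16 weeks to 1 year in SAMR1, the chaperones changed about as often as other probe sets. Of the 116 probe sets 7 were called (6.03%), against 5.48% of all: 4 higher (background 2.63%), in *Hspa1b* and *Cct2*, and 3 lower (background 2.85%), in *Hspa4*, *Hspa4l* and *Hspe1*. The arrays did not overlap in 31 probe sets with 1 year higher, against 25.0% of all, and in 26 with 1 year lower, against 27.4%. Most members were brighter than most probe sets. When only the 17854 probe sets with a mean log2 signal of at least 5 were fitted, 11.3% were called. Of the 89 members among them 10 were called, 5 higher and 5 lower. *Hspa1b* rose on all 3 probe sets, from the low values of SAMR1 at 16 weeks given above, by 0.77 (standard error 0.15, adjusted p = 0.028), 0.83 (0.13, adjusted p = 0.0146) and 1.00 (0.17, adjusted p = 0.0178), or 1.70- to 2.01-fold. *Hspa4*, of the HSP110 group, was at 7.57 and 7.93 at 16 weeks and 7.19 and 7.26 at 1 year on probe set 1416147_PM_at, a fall of 0.53 (standard error 0.11, adjusted p = 0.0359). *Hspa4l*, its close relative, was at 7.46 and 7.36 and then 7.08 and 7.14 on probe set 1429106_PM_at, a log2 difference of −0.30 (standard error 0.07, adjusted p = 0.0382). On these 5 called probe sets the SAMR1 arrays of the ages did not overlap. The other 3 probe sets of *Hspa4*, at −0.06 to −0.04, and the other 4 of *Hspa4l*, at −0.15 to 0.29, were not called. In SAMP8 that probe set of *Hspa4l* was at 7.39 and 7.42 and then 7.26 and 7.21, and it was not called. No call held without SAMR1 1 year replicate 1 or without replicate 2, 4 held without SAMR1 16 weeks replicate 1 and 3 without replicate 2, and 3 held without either SAMP8 1 year array. In the same comparison astrocyte markers had 5 of 30 probe sets called higher and 1 lower, oligodendrocyte markers 3 of 24 higher and 2 lower, and endothelium and pericyte markers 1 of 15 higher and 1 lower. Of the region markers, 2 of 10 hypothalamus and 1 of 22 thalamus probe sets were called lower and 1 of 20 choroid plexus probe sets higher. Of 18 cortical neuron probe sets 1 was called lower, and of the striatum, olfactory bulb, microglia and red blood cell lists none was called. The part of these markers in the chaperone differences was not tested.

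With accelerated aging, over the same interval in SAMP8, most chaperone calls were falls. Early events and accelerated aging share the SAMP8 16 weeks arrays, so a probe set high on these arrays enters both with opposite signs. Of the 116 probe sets 15 were called (12.9%), against 5.07% of all: 12 lower, where the background was 2.8%, and 3 higher, where it was 2.26%. The arrays did not overlap in 62 probe sets with 1 year lower (53.4%, against 26.9% of all) and in 20 with 1 year higher (17.2%, against 25.5%). The median log2 difference was −0.11 for the members and 0.00 for all probe sets. None of the 15 calls held without SAMP8 16 weeks replicate 2 or without either SAMP8 1 year array, and 4 held without SAMP8 16 weeks replicate 1. Leaving out either SAMR1 array of 1 year kept 5 of the 15, and leaving out either of 16 weeks kept all. All 15 kept their direction in each case, which was bound to hold because their SAMP8 arrays of the 2 ages did not overlap. Of 18 probe sets of cortical pyramidal neuron markers 2 were called lower (*Fezf2* and *Neurod2*) and none higher, with a median log2 difference of −0.12. The mean log2 signal of that list in SAMP8, over the brightest probe set of each gene, was 7.19 and 7.40 at 16 weeks and 7.10 and 7.06 at 1 year. Called higher were 2 of 20 choroid plexus, 4 of 24 oligodendrocyte, 3 of 30 astrocyte, 1 of 22 thalamus and 1 of 15 endothelium and pericyte probe sets, and the hypothalamus, striatum, olfactory bulb, microglia and red blood cell lists had no call. The part of these markers was not tested.

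The largest fall was that of *Hspa4* on probe set 1416147_PM_at. It was at 7.75 and 7.73 in SAMP8 at 16 weeks, level with SAMR1 of that age, and at 6.76 and 6.61 at 1 year, the lowest values of the 8 arrays, a log2 difference of −1.05 (standard error 0.11, adjusted p = 0.00916). The other 3 probe sets of the gene had differences of −0.20, −0.18 and 0.09 and no call. Of the 9 J-domain genes 4 were called lower: *Dnajb5* by 0.72 (standard error 0.13, adjusted p = 0.0265), *Dnajb1* on the dimmer probe set by 0.46 (adjusted p = 0.0252), and *Dnaja1* by 0.31 (adjusted p = 0.0476) and, on probe set 1460179_PM_at, by 0.41 (adjusted p = 0.0197). That probe set of *Dnaja1* was at 10.00 and 10.10 and then 9.64 and 9.64 in SAMP8, and at 9.85 and 9.84 and then 9.52 and 9.62 in SAMR1, so 1 year was below 16 weeks in both strains. *Dnaja4* fell on probe set 1434196_PM_at, from 6.80 and 6.79 to 6.35 and 6.50 (log2 difference −0.37, adjusted p = 0.0354), with SAMR1 at 6.58 and 6.46 and then 6.37 and 6.46. The probe set of *Dnaja4* called higher in early events was at −0.05 (adjusted p = 0.753), the brighter one of *Dnajb1* at −0.22 (adjusted p = 0.135) and the 3 of *Dnajb4* at −0.18, −0.14 and 0.17 (adjusted p = 0.169, 0.301 and 0.146), with no call. *Hspb1* fell by 0.50 (adjusted p = 0.0336), and *Hspa1b* fell by 0.70 on probe set 1427126_PM_at (adjusted p = 0.038), while its other probe sets, at −0.33 and −0.19, were not called.

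Of the 4 HSP90 co-chaperone genes 2 were called lower, and so was *Hsf1* of the 2 heat shock factors. These were 2 of 5 co-chaperone probe sets (40.0%) and 1 of 2 heat shock factor probe sets, where 2.8% of all probe sets were called lower. *Ahsa1*, the activator of the HSP90 ATPase, has 1 probe set and was at 7.81 and 7.99 in SAMP8 at 16 weeks and 7.50 and 7.41 at 1 year, against 7.62, 7.56, 7.52 and 7.58 on the SAMR1 arrays. *Chordc1*, another HSP90 partner with 1 probe set, was at 8.04 and 8.24 and then 7.81 and 7.58, against 7.84, 7.81, 7.82 and 7.90. In both genes the SAMP8 16 weeks pair was above all other arrays, and the fall was 0.44 in each (adjusted p = 0.0227 and 0.0382). *Stip1*, which links HSP70 to HSP90, was at −0.25 (adjusted p = 0.216), and *Fkbp4*, of steroid receptor complexes, was at −0.28 on probe set 1416362_PM_a_at (adjusted p = 0.145) and 0.22 on the other, with no call. *Hsf1*, the heat shock factor, was at 5.89 and 5.78 and then 5.34 and 5.18 in SAMP8 and at 5.60 and 5.76 and then 5.37 and 5.38 in SAMR1. It was lower at 1 year in both strains without overlap, by 0.57 in SAMP8 (standard error 0.08, adjusted p = 0.0168), while the SAMR1 log2 difference of −0.30 was not called (adjusted p = 0.0709). *Hsf2*, its relative, had differences of −0.31 and −0.28 with no call.

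Mitochondrial chaperones gave mixed values. *Hspe1*, which encodes the HSP10 lid of the chaperonin, fell in both strains on probe set 1422579_PM_at, from 6.73 and 6.66 to 6.26 and 6.43 in SAMR1 and from 6.89 and 6.79 to 6.36 and 6.31 in SAMP8 (log2 differences −0.35 and −0.51, adjusted p = 0.0395 and 0.0186). On its other, brighter probe set it was at 8.37 and 8.32 and then 8.50 and 8.60 in SAMR1 and at 8.35 and 8.40 and then 8.54 and 8.52 in SAMP8. The arrays of that probe set did not overlap with age either, but in the opposite direction (0.21 and 0.15), and neither was called. *Hspd1*, which encodes HSP60, had log2 differences of −0.15 and −0.28 and no call. *Hspa9*, the mitochondrial HSP70, rose in SAMP8 on 1 of 5 probe sets, from 6.63 and 6.72 to 7.00 and 7.05 (0.35, adjusted p = 0.0336), with SAMR1 at 6.78, 6.91, 7.01 and 7.07. Its brightest probe set lay between 7.86 and 7.95 on all arrays. *Hspa13*, an HSP70 relative found with microsomes rather than free in the cytosol, rose on 1 of 4 probe sets, a dim one below the array medians, from 3.82 and 3.79 to 4.22 and 4.11 (0.36, adjusted p = 0.0237), with SAMR1 at 3.85, 3.88, 4.07 and 4.09.

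Of the 22 probe sets of the cytosolic chaperonin TRiC/CCT, 1 was called in physiological and in accelerated aging and none between the strains. That is 4.55% in each age comparison, near the 5.48% and 5.07% of all probe sets. In accelerated aging 8 of the 22 (36.4%) reached an unadjusted p under 0.05, 5 higher and 3 lower at 1 year, against 23.2% of all. *Cct2* was at 9.08 and 9.07 and then 9.35 and 9.41 in SAMR1 and at 8.95 and 9.01 and then 9.46 and 9.37 in SAMP8 on probe set 1433534_PM_a_at (0.30, adjusted p = 0.0353, and 0.43, adjusted p = 0.0175). Another probe set of *Cct2* ran the opposite way without overlap, from 8.85 and 8.89 to 8.56 and 8.64 in SAMR1 and from 9.03 and 8.95 to 8.78 and 8.72 in SAMP8, with no call. Strain differences over the 22 probe sets ranged from −0.14 to 0.31 at 16 weeks and from −0.06 to 0.20 at 1 year. The 27 genes called in none of the 4 comparisons had 67 probe sets with a median absolute log2 difference of 0.09.

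**Figure D3:**
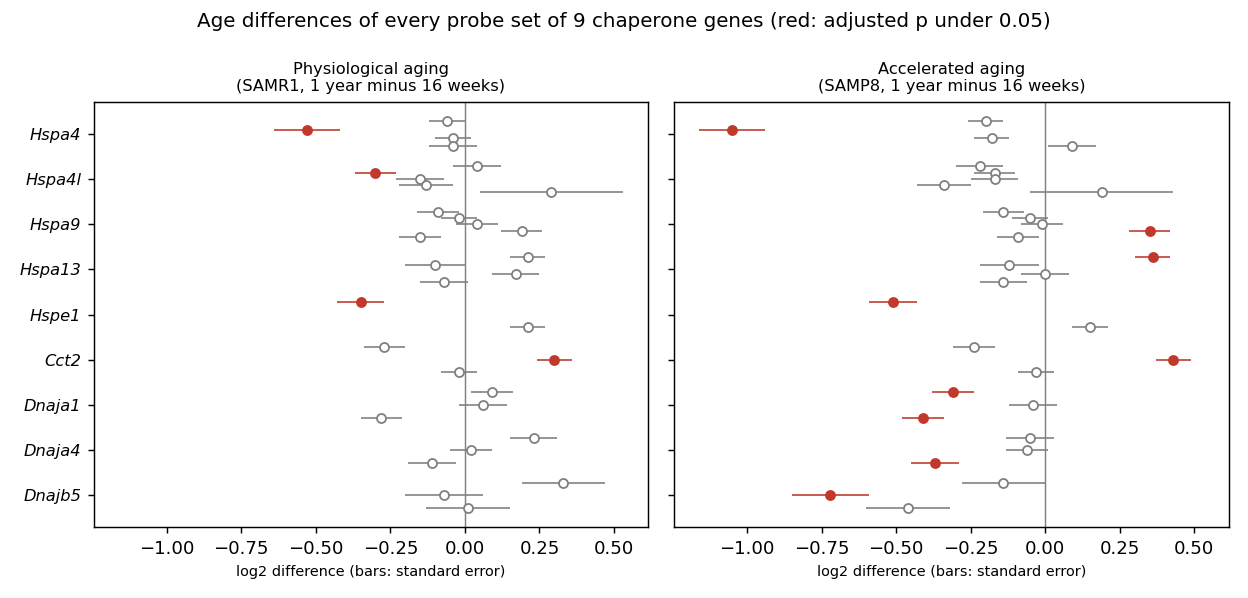
Age difference of every probe set of 9 chaperone genes in SAMR1 (left) and SAMP8 (right), on the log2 scale, with bars for the standard error and red for an adjusted p under 0.05. Single probe sets of *Hspa4*, *Hspe1*, *Cct2*, *Hspa9* and *Hspa13* were called while other probe sets of the same gene were not. Those others lay near 0, on the other side of it, or on the same side with smaller differences, as *Hspa4* in SAMP8 at −0.20 and −0.18.

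Of the 18 genes called in at least 1 comparison, 15 had more than 1 probe set, and in 3 of these every probe set was called in the same comparison and direction. The probe sets of *Hspa8*, the constitutive HSC70, differed as well. The brightest, 1455789_PM_x_at, was at 11.18 and 11.22 in SAMR1 and 11.26 and 11.31 in SAMP8 at 16 weeks and at 11.21, 11.25, 11.30 and 11.26 at 1 year. These values differed by at most 0.09 between strains and 0.03 with age, with no call. The dimmest, 1431182_PM_at, was at 5.39 and 4.69 in SAMR1 and 4.97 and 5.09 in SAMP8 at 16 weeks, and at 4.03 and 4.08 in SAMR1 and 4.67 and 5.54 in SAMP8 at 1 year. The SAMR1 1 year pair was the lowest, while the arrays within SAMR1 at 16 weeks and within SAMP8 at 1 year lay far apart, and the late events difference of 1.05 was not called (standard error 0.28, adjusted p = 0.242). Which part of the transcript each probe set reads was not examined.

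At 1 year no chaperone probe set was called between the strains. Late events called 0 of 116 by limma's adjusted p, with 0.688% of all probe sets called and a smallest member value of 0.0961, in *Hsp90ab1*. An unadjusted p under 0.05 was reached by 9 member probe sets (7.76%), against 7.58% of all. The arrays did not overlap in 28 with SAMP8 higher, against 19.2% of all probe sets, and in 17 with SAMP8 lower, against 19.5%. The 13 probe sets called at 16 weeks had log2 differences of −0.18 to 0.32 at 1 year, and 4 of them reached an unadjusted p under 0.05, both probe sets of *Hsp90ab1*, *Dnajb5* (0.32) and *Dnaja4* (0.19). *Hspa4* on probe set 1416147_PM_at, which did not differ beyond its spread at 16 weeks (−0.01), was at −0.54 in late events (standard error 0.11, adjusted p = 0.107). A prior variance that follows the signal level gave 2 calls in late events in place of 0, and so did array weights and leaving out either SAMR1 16 weeks array.

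**Figure D4:**
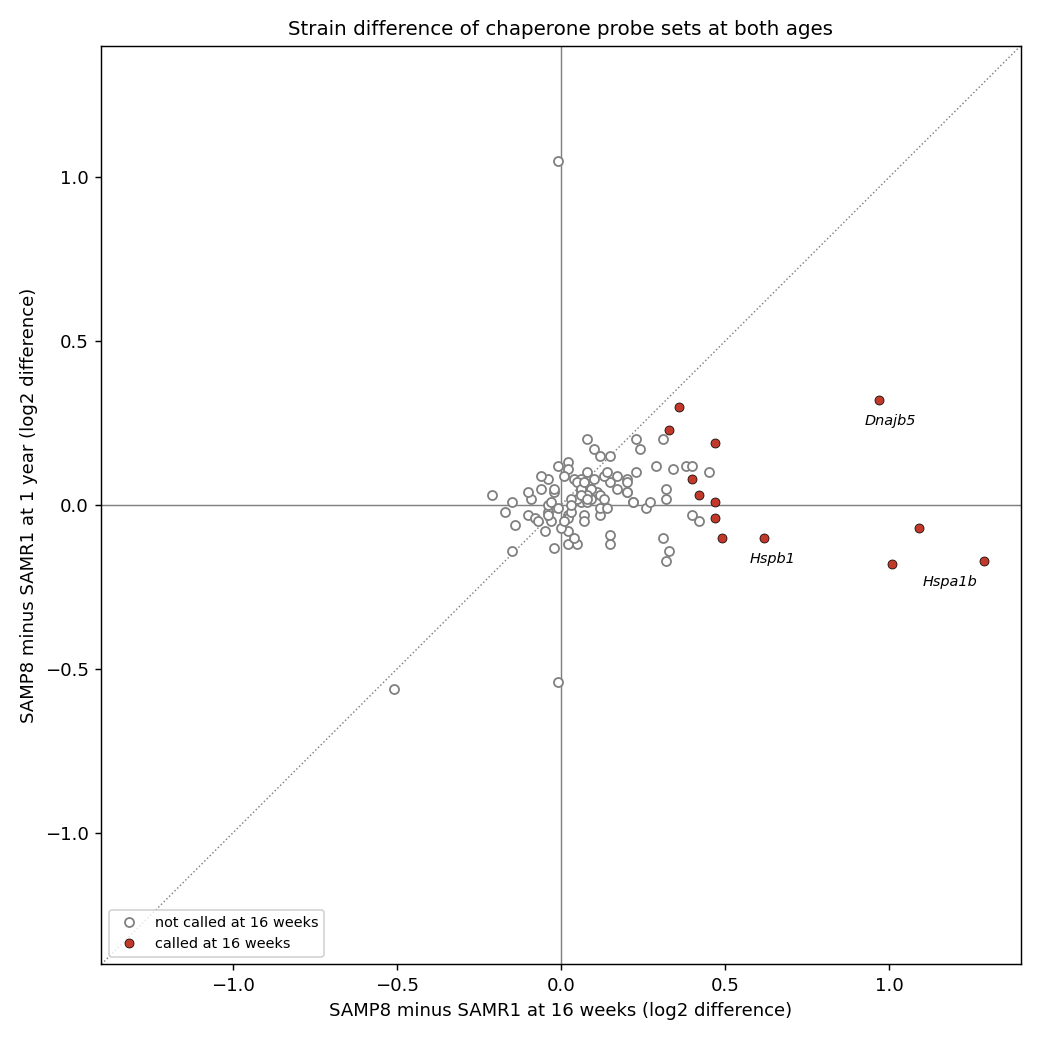
Strain difference (SAMP8 minus SAMR1) of the 116 chaperone probe sets at 16 weeks (horizontal) and at 1 year (vertical), both as log2 differences; the dotted line marks equal differences and red marks the 13 probe sets called at 16 weeks. The red points lie between 0.33 and 1.29 at 16 weeks and between −0.18 and 0.32 at 1 year.

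Whether the strain difference changed between the ages was tested as the strain by age interaction. No member was called, with 0.00222% of all probe sets called (1 probe set) and a smallest member adjusted p of 0.179, in *Hspa1b*. An unadjusted p under 0.05 was reached by 22 of 116 member probe sets (19.0%), against 6.92% of all probe sets. Such a p with a negative difference was found in 21 of the 116, against 3.63% of all probe sets. The most negative were those of *Hspa1b*, at −1.47 (standard error 0.21), −1.20 (0.23) and −1.17 (0.18), followed among the called genes by *Hspb1* at −0.72 and *Dnajb5* at −0.65. All 13 probe sets called at 16 weeks had a negative interaction, and 11 reached an unadjusted p under 0.05, but the interaction uses the 16 weeks arrays by which they were called. By the adjusted p, a change of the strain difference between the ages was not detectable for any member at this number of arrays.

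Other chaperones and stress genes were counted from lists written with earlier results of these data known. To be read beside each list, the shares of all probe sets called were 1.23% between the strains at 16 weeks and 0.688% at 1 year, and with age 5.48% in SAMR1 and 5.07% in SAMP8. Of 48 probe sets of 26 further cytosolic and mitochondrial chaperones, such as prefoldins and DNAJC proteins, 1 was called at 16 weeks (2.08%, *Grpel2*) and 2 at 1 year (4.17%, *Grpel2* and *Pfdn2*), all higher in SAMP8. With age, *Dnajc5* rose and *Dnajc2* fell in SAMR1 (2 calls, 4.17%), and *Dnajc2* fell in SAMP8 (1 call, 2.08%). The median difference of that list at 16 weeks was 0.03, against 0.08 for the members. Chaperones and regulators of the endoplasmic reticulum, with 38 probe sets in 18 genes, had 4 called higher and 0 lower in SAMP8 at 16 weeks (10.5%, *Xbp1*, *Pdia6*, *Hspa5* and *Manf*), and a median difference of 0.23. Their list mean was at 7.42 and 7.46 in SAMR1 and 7.69 and 7.71 in SAMP8 at 16 weeks, and at 7.63 and 7.66 and then 7.52 and 7.45 at 1 year, so the order of the strains was opposite at the 2 ages. With age, 12 probe sets of this list were called higher and 1 lower in SAMR1 (34.2%), and 1 higher and 14 lower in SAMP8 (39.5%). At 1 year 4 were called lower in SAMP8 (10.5%), where no member of the cytosolic and mitochondrial set was called. Immediate early genes had 5 of 14 probe sets called higher in SAMP8 at 1 year (35.7%) and none at 16 weeks, and with age 1 lower in SAMR1 and 1 higher in SAMP8 (7.14% each). Clock genes had 3 of 23 called higher with age in SAMR1, 2 higher and 1 lower in SAMP8 (13.0% each), and none between strains, and the cold-induced genes *Cirbp* and *Rbm3* had no call.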

How the data were processed

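The authors summarised the MG-430 PM arrays by RMA and deposited log2 signals, 1 value per probe set and array. The labelling kit is named differently in the labels, the series text and the paper. The authors' tables of their own comparisons (fold, p-value and FDR) were not used. After 40 control probe sets were left out of 45077, limma 3.58.1 in R 4.3.3 fitted 4 group means to 8 arrays, with 4 residual and 4.5 prior degrees of freedom and no filter on dim probe sets. Every p in the text is two-sided and from this fit. Values of every array are given for members called in at least 1 comparison and for the brightest probe set of the classic heat shock genes. The members and lists were chosen with earlier results of these data known. Brightest and dimmest name the order of mean RMA signals among a gene's probe sets, which is no measure of RNA amount. The alternatives were each comparison fitted on its own 4 arrays, the replicate number as a block, limma-trend, arrays centred on their medians, a mean log2 signal of at least 5, the series matrix, array weights, each array left out and, for counts, the study's threshold (unadjusted p under 0.05, linear fold above 1.1) and the brightest probe set of each gene. Promoter windows and motif counts came from 32851 RefSeq windows (GRCm38.p6). No genome or protein table was used.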

Additional observations from a re-analysis of the deposited data

How the results depend on the processing

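No called value reversed under the alternatives, and the series matrix gave identical counts. Most alternatives could not reverse one. The arrays of the 2 groups did not overlap in any call, so leaving out 1 array kept the direction. The replicate block, limma-trend and the series matrix left the differences as they were. With each array left out in turn, the calls ranged from 0 to 7 in physiological aging (7 in the full fit), 0 to 19 in accelerated aging (15), 0 to 11 in early events (13) and 0 to 2 in late events (0), and were 0 in the interaction; an array left alone in its group was assumed to vary like the others. Each comparison fitted on its own 4 arrays gave 0, 9, 2 and 1 calls in that order, with 0.0%, 3.01%, 0.266% and 0.753% of all probe sets called. The study's threshold gave 32, 48, 38 and 9 probe sets, and 22 in the interaction. By the unadjusted p under 0.05 alone, without the fold, the shares of the members were 27.6%, 42.2%, 32.8%, 7.76% and 19.0%. Those of all probe sets were 23.5%, 23.2%, 14.0%, 7.58% and 6.92%, so physiological aging and late events lay near the background. With only the brightest probe set of each gene, the genes called numbered 1, 4, 5 and 0 in the same order. Array weights reduced the early events to 3 calls and raised the late events to 2, and limma-trend also made 2 late calls. The titles number the replicates, but nothing ties the numbers to litters or days, and the correlations of the replicate differences between groups were −0.086 to 0.196. With the replicate number as a block, the calls were 7, 17, 10, 0 and 0, so the pairing moved no count by over 1.5 times. The shares of all probe sets called were then 5.99%, 5.57%, 1.23%, 0.757% and 0.0%. Over 35 single calls, 102 of 280 values with an array left out and 203 of 244 under the other settings kept the call; the cause was not tested. The number of arrays, 2 per group, limits every call.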
